A study of Sus scrofa domesticus with 4 samples.

Results

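The orexin, leptin and adiponectin systems of the pig endometrium, the lining of the uterus, were followed through 8 genes: 3 ligands (HCRT, LEP and ADIPOQ) and 5 receptors (HCRTR1, HCRTR2, LEPR, ADIPOR1 and ADIPOR2). Members were chosen by name, as every probe for a transcript of one of these genes whose RefSeq identifier in the array files matched that pig gene symbol. These 8 genes, of 3029 named on the array, had 13 of its 43603 probes. Of these, 7 probes, for 5 of the genes, gave enough signal to be tested, among 26927 probes tested in all and 2407 named genes.

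The study put slices of endometrium in culture with or without orexin A (OXA) and compared their RNA on 4 Agilent oligonucleotide arrays. A treated and an untreated RNA were labelled with different dyes and put on the same array, so each array gives 1 ratio of OXA over control. The 4 gilts, crosses of Large White and Polish Landrace, were 7 to 8 months old, weighed 120 to 130 kg and were pregnant at day 15 to 16. Slices 3 mm thick and of about 100 mg were preincubated for 2 h and then kept for 24 h with OXA or with no addition. OXA was at 10 nM by the sample labels and at 10 µM by the design text. Cultures were run in duplicate in 4 experiments, and the sources used here do not say whether the treated and untreated RNA on an array shared a gilt. P-values therefore rest on the spread between arrays, whatever mix of animal, tissue piece and handling it holds. The test used (limma) draws the spread of each probe toward a value estimated over all tested probes. A p-value or interval is therefore not set by the arrays of that probe alone. OXA was in the red dye Cy5 on arrays 1 and 3 and in the green dye Cy3 on arrays 2 and 4 by the dye labels of the samples, while the labelling protocol places it in Cy5 on every array. The dye labels were followed. The authors' deposited values are turned against Cy5 over Cy3 on arrays 2 and 4 only, as these labels have it.

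HCRT encodes prepro-orexin, the precursor that is cut into orexin A and orexin B, and the peptides act through the G protein-coupled receptors encoded by HCRTR1 and HCRTR2. LEP encodes leptin, a hormone made mainly by fat cells, which signals through the cytokine receptor LEPR and JAK and STAT proteins, and ADIPOQ encodes adiponectin, a fat-cell hormone whose receptors ADIPOR1 and ADIPOR2 act through AMP-activated protein kinase and the nuclear receptor PPARA. All these hormones link energy balance to reproduction. The OXA added to the medium was the mature peptide, whereas the HCRT probe reads the messenger RNA of its precursor.

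Between 62.4% and 74.6% of probes were well above background in Cy5, against 31.8% on array 1 and 52.1% to 56.7% on the other arrays in Cy3. Negative-control spots, which match no pig transcript, had a median raw intensity of 68 to 74 in Cy5, and in Cy3 of 251 on array 1 and 154 to 166 on the other arrays. Over all tested probes the normexp log2 ratios of OXA over control correlated between pairs of arrays with r from -0.29 (arrays 3 and 4) to 0.44 (arrays 1 and 2), a description across probes. Of the 13 genes of endometrial identity named on the array, which include the steroid receptors PGR and ESR1, 12 were measured, and PTGFR was well above background in 1 of 8 readings. In whole tissue slices, fewer cells of a type and less RNA per cell cannot be told apart.

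Each probe had 8 readings, 1 per dye on 4 arrays. Over all 13 probes, 54 of 104 readings were well above background, with 33 of 52 in Cy5 and 21 of 52 in Cy3. The ligand and adiponectin receptor genes carried nearly all of this signal, and the receptors for orexin and leptin were at or near background. Signal strength depends on the probe, so levels are set against negative-control spots of the same array and dye and not against another gene.

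HCRT (probe A_72_P261732), the orexin precursor gene, was well above background in 7 of 8 readings. Its raw Cy5 intensity was 5.69 to 6.83 times the negative-control median, and its raw Cy3 intensity was 1.34 to 2.05 times that median. The reading that missed was the Cy3 control reading of array 1, the array with the brightest Cy3 negative controls. The precursor RNA was thus read in treated tissue on 4 of 4 arrays and in untreated tissue on 3 of 4.

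LEP, the leptin gene, had 2 probes that gave different results. The first (A_72_P165551) was well above background in 7 of 8 readings, with raw Cy5 intensities 4.00 to 9.36 times the negative-control median. The second (A_72_P442233) passed in 2 of 8 readings, both of them control tissue in Cy5 on arrays 2 and 4, at 1.58 and 1.51 times that median. The LEP ratios given here therefore rest on 1 probe.

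ADIPOQ, the adiponectin gene, also had 2 probes. The first (A_72_P165401) was well above background in Cy5 on 4 of 4 arrays, at 1.84 to 2.58 times the negative-control median, and in Cy3 on 0 of 4, at 1.04 to 1.2 times. The second (A_72_P767053) passed in 0 of 8 readings. ADIPOQ was therefore measured in OXA tissue on 2 arrays and in control tissue on the other 2 arrays, and on no array in both.

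The orexin receptor genes gave little signal. HCRTR1, which binds orexin A in preference to orexin B, passed in 1 of 8 readings, that of control tissue in Cy5 on array 2, at 2.10 times the negative-control median. Its other Cy5 readings were 1.32, 1.36 and 1.53 times the median on arrays 1, 3 and 4. HCRTR2, which binds both orexins, passed in 2 of 8 readings with its first probe, for OXA tissue on array 3 at 1.57 times and for control tissue on array 4 at 1.68 times, and in 0 of 8 with its second probe. No fold between OXA and control is given for either receptor, or for the second LEP probe.

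LEPR, the leptin receptor gene, was well above background in 0 of 8 readings. Its single probe ranged from 0.897 to 1.07 times the negative-control median in Cy5 and from 0.761 to 1.01 times in Cy3. These readings lay at the level of the negative controls, so LEPR was not detectable at this signal, and a level beneath it cannot be given.

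Both adiponectin receptor genes were read clearly. ADIPOR1, the receptor type linked to AMP-activated protein kinase, was well above background in 15 of 16 readings over 2 probes, and the exception was the Cy3 control reading of its second probe on array 1. ADIPOR2, the type linked to PPARA, passed in 16 of 16. Raw Cy5 intensities were 7.97 to 12.2 and 3.67 to 6.93 times the negative-control median for the ADIPOR1 probes (A_72_P077761 and A_72_P187361). They were 6.70 to 9.09 and 4.80 to 7.45 times that median for the ADIPOR2 probes (A_72_P440141 and A_72_P302919).

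The number of genes read depended on the rule for detection. At least 4 of 8 readings of 1 probe passed for 5 of the 8 genes with the well-above-background mark, beside 2407 tested genes of all 3029 named. A looser mark of the scanner software, for spots positive and significant against local background, gave 75 readings and 7 genes. A limit at the 95th percentile of the negative controls gave 73 readings and also 7 genes. For the looser mark and this limit, the share over all probes or named genes was not computed. LEPR was the gene without a passing probe under all 3 rules.

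**Figure D1:**
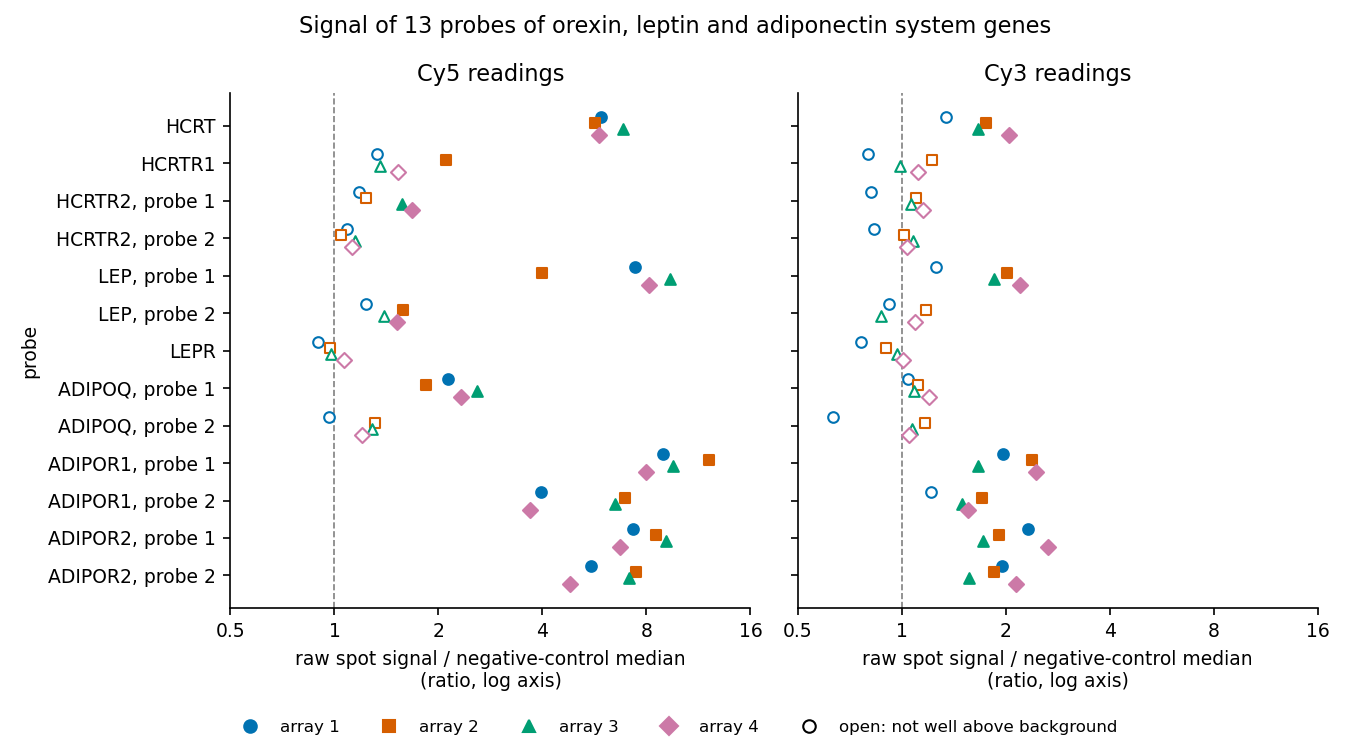
Raw spot intensity divided by the median of the negative-control spots of the same array and dye, on a log axis, for the 13 probes in Cy5 (left) and Cy3 (right). Each point is 1 reading of 1 array, filled points were well above background, and the dashed line marks the negative-control median. LEPR and the second HCRTR2 and ADIPOQ probes have no filled point, and both ADIPOR2 probes have none but filled points. Positions of different probes are not comparable as levels of RNA.

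Whether 24 h of OXA changed the RNA of these genes was tested on the log2 ratio of OXA over control in limma, with a coefficient for OXA and one for the dye. No member passed an adjusted p of 0.05 (Benjamini-Hochberg over all probes): 0 of 7 tested probes, where 0 of all 26927 probes, or 0%, did. At an unadjusted p under 0.05 it was also 0 of 7 probes, against 509 of all probes, or 1.89%. The same fit on the log ratio that the scanner software had written called 0 probes after adjustment, with a smallest adjusted p of 0.688. It gave 0 of 7 member probes at an unadjusted p under 0.05, against 1829 of all probes, or 6.79%. On that log ratio 0 of 7 member probes had the same sign on 4 of 4 arrays, against 3462 of all probes, or 12.9%.

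The fixed processing of raw intensities (normexp background correction, then loess) gave smaller ratios for dim probes. Its fitted background means were below 0 in every channel, at -96.4 to -2113, so that spots with no pig transcript were carried to median corrected intensities of 211 to 2504. In Cy5 these were 211 on array 1 and 1081, 1648 and 2504 on arrays 2 to 4. Over all tested probes the SD of the normexp ratios was 0.46, 0.31, 0.18 and 0.17 on arrays 1 to 4. Array 1 therefore tends to weigh most in coefficients of that fit, and the SEs of that fit are on this reduced scale. The values of single arrays are therefore given as the deposited log ratio, turned to OXA over control and to log2, which is built on the processed intensities of the scanner software. Coefficients are given from both fits.

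HCRT had processed intensities in OXA and control tissue of 90.6 and 80.0 on array 1, 130 and 176 on array 2, 125 and 124 on array 3, and 204 and 178 on array 4. The deposited log2 ratios of OXA over control were 0.18, -0.43, 0.00 and 0.19. OXA was lower on array 2 and level or slightly higher on the others, and the ranges of both groups overlap. The coefficient was -0.01 (SE 0.25, 95% interval -0.57 to 0.55, limma adjusted p = 0.991, n = 4 arrays) on the deposited ratio. After normexp and loess it was 0.01 (SE 0.06, adjusted p = 0.923). A difference in the RNA of the peptide's own precursor was not detectable, within an interval that allows a fold of 0.672 to 1.46.

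LEP had the only OXA coefficient among the members that kept its sign in all 19 alternative settings run, from 0.03 to 0.57. These settings reuse the same 4 arrays and are not independent. Leaving out the dye coefficient, adding an intensity trend or array weights, keeping dim probes and averaging probes all gave the normexp value of 0.09. The authors' table repeated the deposited value of 0.38. The first LEP probe had processed intensities in OXA and control of 133 and 79.0, 191 and 126, 215 and 173, and 271 and 303 on arrays 1 to 4. The deposited log2 ratios were 0.75, 0.60, 0.31 and -0.16, so OXA was the higher on 3 of 4 arrays and the lower on array 4. The coefficient was 0.38 (SE 0.26, limma adjusted p = 0.708), a fold of 1.30 with a 95% interval of 0.866 to 1.94. The normexp fit gave 0.09 (SE 0.07, adjusted p = 0.764). The difference was smaller than the spread between arrays allows to be called. On the deposited ratio the coefficient was 0.19 without array 2 and 0.57 without array 4.

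ADIPOQ split by dye. The deposited log2 ratios of its first probe were 0.62 and 0.90 on arrays 1 and 3, where OXA was in Cy5, and -1.12 and -0.45 on arrays 2 and 4, where OXA was in Cy3. The Cy5 sample was the higher on each of the 4 arrays, whether it was OXA or control tissue. Processed intensities ran from 28.3 to 40.2 in Cy5 and from 13.0 to 29.4 in Cy3, where no reading was well above background. The dye coefficient was 0.77 (SE 0.25) and the OXA coefficient -0.01 (SE 0.25, limma adjusted p = 0.991). In the normexp fit the OXA coefficient was 0.02 (SE 0.05, adjusted p = 0.888).

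ADIPOR1 was lower in OXA tissue on some arrays and higher on others. Its first probe had processed intensities in OXA and control of 205 and 276, 281 and 464, 215 and 154, and 320.0 and 302 on arrays 1 to 4, with deposited log2 ratios of -0.43, -0.72, 0.48 and 0.08. Its second probe gave 0.24, -0.79, 0.22 and 0.27. The probes had the same sign on arrays 2, 3 and 4 and opposite signs on array 1. Their OXA coefficients were -0.15 (SE 0.28, limma adjusted p = 0.914) and -0.02 (SE 0.27, adjusted p = 0.991). The normexp fit gave -0.09 (SE 0.08, adjusted p = 0.764) and -0.03 (SE 0.06, adjusted p = 0.851).

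ADIPOR2 had the widest spread between arrays among the members read in both dyes. Its first probe had processed intensities in OXA and control of 100.4 and 222 on array 1, 153 and 264 on array 2, 165 and 134 on array 3, and 288 and 179 on array 4. The deposited log2 ratios were -1.14, -0.79, 0.30 and 0.68. The second probe gave -1.32, -0.74, 0.26 and 0.67. Both probes therefore put OXA tissue below control on arrays 1 and 2 and above it on arrays 3 and 4. By the dye labels each of these pairs holds 1 array with OXA in Cy5 and 1 with OXA in Cy3. The coefficients were -0.24 (SE 0.34, limma adjusted p = 0.882) and -0.28 (SE 0.34, adjusted p = 0.856), and for the first probe the fold was 0.849 with a 95% interval of 0.496 to 1.45.

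With normexp and loess the ADIPOR2 coefficients were -0.20 (SE 0.14) and -0.15 (SE 0.11), both at a limma adjusted p of 0.764. Single arrays decided the value of the first probe. It was -0.01 without array 1 and -0.38 without array 3 in that fit, where array 1 had the widest ratios over all tested probes. On the deposited ratio it was 0.12 without array 1 and 0.13 without array 2, against -0.60 without array 3 or without array 4.

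**Figure D2:**
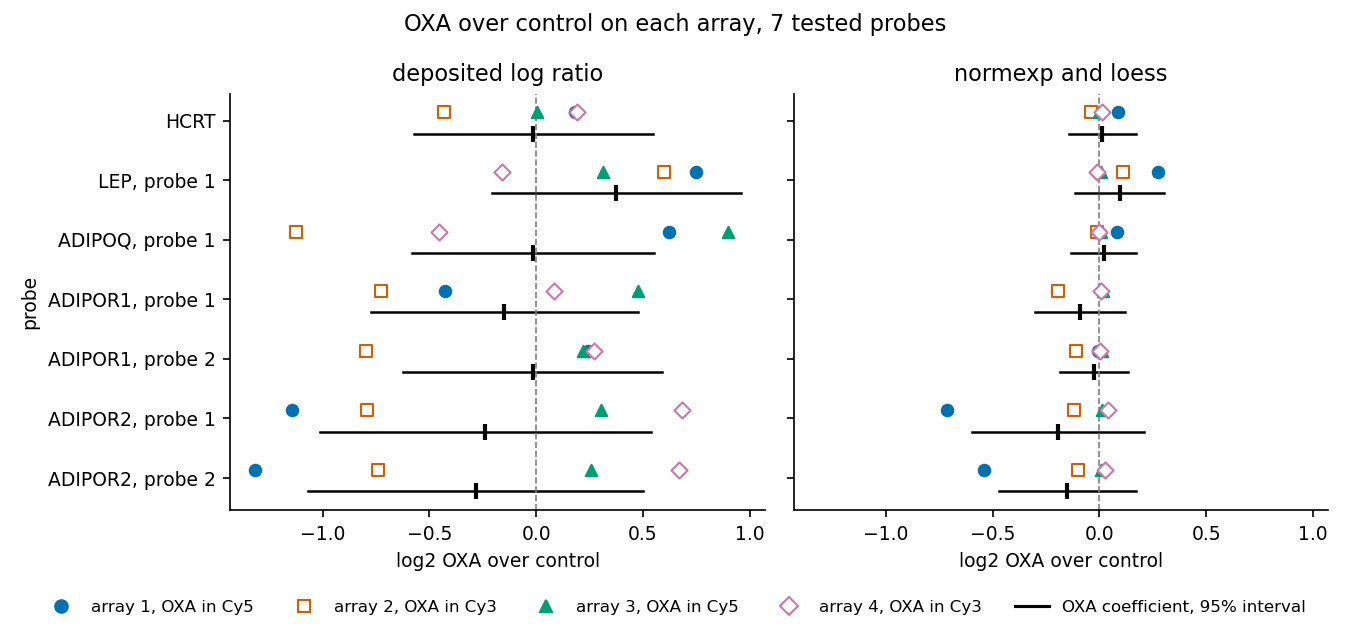
Log2 OXA over control on each array for the 7 tested probes, from the deposited log ratio (left) and after normexp and loess (right). Points are single arrays, filled where OXA was in Cy5 and open where it was in Cy3, and the bar under them is the limma OXA coefficient with its 95% interval. All 14 intervals cover 0, ADIPOQ separates filled from open points on the left, and the points of arrays 3 and 4 lie close to 0 on the right.

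Each adiponectin receptor gene had 2 tested probes, which read the same labelled RNA on an array and so share its animal, tissue piece and labelling. For ADIPOR2 the deposited ratio varied over arrays with an SD of 0.87 for one probe and 0.91 for the other, and the probes differed on the same array by 0.01 to 0.17. For ADIPOR1 the SD over arrays was 0.53 and 0.52, and the probes differed by 0.07 to 0.67. The largest of these differences was on array 1, the only array on which their signs differed. Among all kept probes the spread of ADIPOR2 between arrays was at percentiles 85.8 and 87.8 on the deposited ratio, of ADIPOR1 at percentiles 53.9 and 52.1, of LEP at percentile 34.8 and of HCRT at percentile 18.9. ADIPOQ was at percentile 89.1, and its values split by dye.

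**Figure D3:**
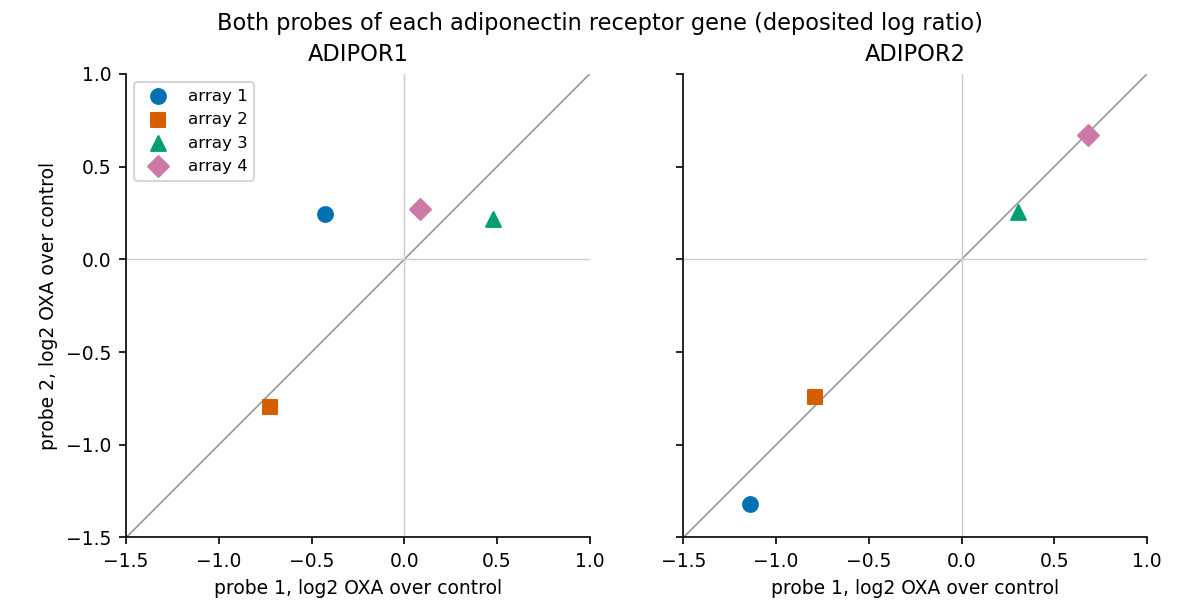
Deposited log2 OXA over control of the first probe (horizontal) against the second probe (vertical) of ADIPOR1 (left) and ADIPOR2 (right), with 1 point per array and the line of equality. The ADIPOR2 points lie along the line from array 1 at -1.14 and -1.32 to array 4 at 0.68 and 0.67, and the ADIPOR1 point of array 1 lies off it.

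Markers of cell types in the slices also differed between OXA and control tissue of the same array. The median deposited log2 ratio of 6 measured epithelium markers, such as EPCAM and KRT8, was -0.88, -0.24, -0.20 and 0.75 on arrays 1 to 4, beside -1.14, -0.79, 0.30 and 0.68 for ADIPOR2. Their summed processed intensity was 40450 to 76190 in OXA and 45340 to 87750 in control tissue, and no marker of the list was at background. Single epithelium markers differed from this median. CLDN4 had -1.82, -0.89, -0.02 and 0.71, and EPCAM had -0.78, 0.20, -0.17 and 0.52. KRT8 had 0.0004, -0.205, -0.34 and 0.94. The 3 stromal fibroblast markers measured (LUM, DCN and COL1A2) had medians of 1.44, 0.09, -0.19 and 0.12, and sums of 20850 to 53060 in OXA and 13820 to 41100 in control tissue. The part of the makeup of the slices in the ADIPOR2 values was not tested.

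Fat-cell markers were set beside leptin and adiponectin. Of 12 adipocyte markers, 11 were named on the array and 9 were measured, while PLIN1 and CIDEC, lipid-droplet proteins of fat cells, were well above background in 0 of 8 readings. LIPE and PCK1 of the same list were well above background in 8 of 8 readings, LPL in 5 and FABP4 in 4. The markers measured, such as PPARG, PLIN2 and SCD, are also made by other cells. Their median deposited log2 ratio was 0.20, -0.35, -0.07 and 0.24 on arrays 1 to 4, and their summed intensity was 5310 to 9099 in OXA and 5199 to 11190 in control tissue.

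The 7 measured T and NK lymphocyte markers had median deposited log2 ratios of 0.44, -0.84, 1.29 and -1.66, with sums of 722 to 6285 in OXA and 584 to 9594 in control tissue. The 5 measured macrophage and myeloid markers had medians of 0.46, -0.96, 0.17 and -1.87, with sums of 2578 to 11250 in OXA and 2299 to 13650 in control tissue. No named marker of either list was without a reading well above background. Both lists had the signs of ADIPOQ on each array, positive on arrays 1 and 3 and negative on arrays 2 and 4. The 4 measured smooth muscle markers had these signs too, with medians of 0.13, -1.29, 0.36 and -0.35 and sums of 8903 to 17390 in OXA and 8743 to 29830 in control tissue. The 4 measured endothelium markers did not, with medians of 0.63, -0.49, -0.54 and -0.48, negative on array 3. Their sums were 12300 to 34960 in OXA and 8971 to 44690 in control tissue. The signs shared by ADIPOQ and the lymphocyte, macrophage and smooth muscle lists are also those of the dye orientation, since OXA was in Cy5 on arrays 1 and 3. For those lists, as for ADIPOQ, cell makeup and dye cannot be told apart from these signs. The part of these cell types in the ADIPOQ values, which rest on Cy3 readings not above background, was not tested.

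The partners and downstream genes of the 3 hormone systems were taken from lists and described by the deposited OXA coefficient of each measured gene, with a median of -0.06 over all 2407 named genes, of which 991 were above 0. At an unadjusted limma p under 0.05, 29 of all named genes were higher and 103 lower with OXA. No gene of any list passed an adjusted p of 0.05 in either fit. Each value is that of the gene's brightest kept probe, and other kept probes of these genes are not described.

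Of the orexin system partners, neuropeptides and receptors that work beside orexin in the brain, 3 of 8 were measured. Their median was -0.32 and 0 of 3 were above 0. PDYN, the precursor of the opioid peptide dynorphin, which orexin neurons also make, had deposited log2 ratios of -1.78, -0.09, -0.58 and -1.46 on arrays 1 to 4. OXA tissue was the lower on 4 of 4 arrays, with a coefficient of -0.98 (SE 0.32) at an unadjusted p under 0.05 and not past adjustment. In the normexp fit it was -0.24 (SE 0.11, limma adjusted p = 0.764). These PDYN values are of the brighter of 2 kept probes. CCK, the gut and brain peptide cholecystokinin, was at -0.32 (SE 0.28), and MCHR1, the receptor of melanin-concentrating hormone, was at -0.04 (SE 0.28) on the deposited ratio.

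Of the G protein and calcium signalling genes through which orexin receptors act, 8 of 30 were measured, with a median of -0.23 and 2 of 8 above 0. None reached an unadjusted p under 0.05 on the deposited ratio. GNAS, the stimulatory G protein alpha subunit, was lower with OXA on 4 of 4 arrays, at -0.49, -0.15, -0.16 and -0.29, with a coefficient of -0.27 (SE 0.24). In the normexp fit the GNAS coefficient was also -0.27 but with an SE of 0.06, at an unadjusted p under 0.05 and a limma adjusted p of 0.764. These GNAS values are of the brightest of 14 kept probes, and the others are not described. MAP2K1, the kinase upstream of ERK, was at -0.29 (SE 0.24), and GNA11, a Gq-class subunit of the kind that couples to orexin receptors, was at -0.35 (SE 0.27) on the deposited ratio.

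Of the leptin receptor signalling genes, 11 of 24 were measured, with a median of -0.13 and 3 of 11 above 0, and 0 at an unadjusted p under 0.05 in either direction. STAT5B was at -0.33 (SE 0.24) and STAT5A at -0.50 (SE 0.27) on the deposited ratio. These transcription factors carry signals of many cytokine and hormone receptors beside that of leptin.

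Of the adiponectin receptor signalling genes, 17 of 25 were measured, with a median of -0.10 and 6 of 17 above 0, and 2 were lower at an unadjusted p under 0.05. These were UCP2, a carrier of the inner mitochondrial membrane, at -0.67 (SE 0.25), and SLC2A4, the insulin-responsive glucose transporter GLUT4, at -0.66 (SE 0.27). UCP2 had deposited log2 ratios of -0.50, -1.10, 0.27 and -1.37, and SLC2A4 of -1.42, -0.68, -0.76 and 0.24, so each had 1 array against its direction. On arrays 2, 3 and 4 UCP2 had the signs of the macrophage and lymphocyte marker medians, and their part in its value was not tested. PPARGC1A, a coactivator of genes for oxidative metabolism, was at 0.18 (SE 0.24), and CDH13, a cadherin that binds adiponectin, was at -0.25 (SE 0.24).

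Of 28 other appetite and metabolic hormones and receptors, 21 were named on the array and 10 were measured, with a median of -0.01 and 5 of 10 above 0, and 0 at an unadjusted p under 0.05. RARRES2, the adipokine chemerin, was at 0.28 (SE 0.27) and was higher with OXA on 3 of 4 arrays. POMC, the precursor of melanocortins, had deposited log2 ratios of -1.29, -0.79, -0.07 and -0.05 and a coefficient of -0.55 (SE 0.29). After normexp and loess the POMC coefficient was -0.48 (SE 0.30), with OXA higher on array 3 at 0.22. GAL, the neuropeptide galanin, ranged from -1.24 on array 1 to 1.24 on array 4. With normexp and loess, the medians of the 5 lists lay between -0.14 and -0.02, and over all named genes the median was -0.02. The sign of the list medians depended on the normalization, since with median centring in place of loess they lay between 0.01 and 0.19, all above 0, beside a median over all tested probes of 0.14 in place of 0.02.

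**Figure D4:**
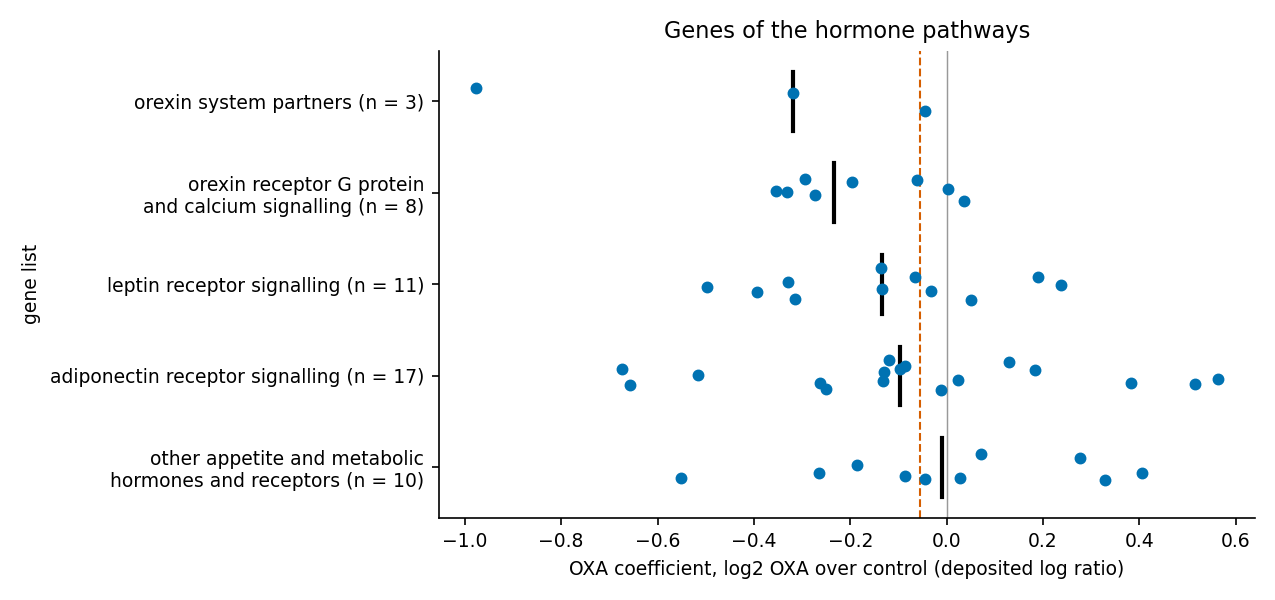
Limma OXA coefficient on the deposited log ratio (log2 OXA over control, horizontal) for each measured gene of 5 lists (rows, with the number measured). Points are genes, with vertical scatter only to separate them, black bars are the list medians, the grey line is 0 and the dashed line is the median of -0.06 over all named genes. The list medians run from -0.32 for the orexin partners to -0.01 for the other hormones, and the leftmost point is PDYN at -0.98.

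The genes whose ratios were most like those of each member over the 4 arrays were found among 2406 named genes by the root mean square difference on the deposited log2 scale. For HCRT they were PLTP (0.06) and SLC22A4 (0.07), and for LEP they were SLC11A1 (0.01) and ZUFSP (0.11). For ADIPOQ they were ITGAL (0.20) and IL15 (0.26), for ADIPOR1 TACO1 (0.08) and RAB32 (0.12), and for ADIPOR2 LRRC59 (0.15) and LPIN2 (0.16). SLC11A1, a metal transporter of macrophages, had ratios of 0.75, 0.59, 0.33 and -0.17, beside 0.75, 0.60, 0.31 and -0.16 for LEP. The macrophage and myeloid marker medians were 0.46, -0.96, 0.17 and -1.87, with the other sign on array 2. ITGAL, the integrin chain of lymphocyte adhesion, had 0.31, -1.02, 0.68 and -0.47, beside 0.62, -1.12, 0.90 and -0.45 for ADIPOQ. The ADIPOQ ratios, and so the choice of its like genes, rest on Cy3 readings that were not well above background on any array. With normexp and loess the most like genes were HSD17B13 and GYS2 for HCRT, IFI44 and TCEAL2 for LEP, SOCS4 and LIN28A for ADIPOQ, ASCL2 and TMEM57 for ADIPOR1, and SLC1A1 and NECTIN2 for ADIPOR2, so no gene was named under both scales. Over 4 arrays of shared libraries such likeness is a description and carries no test.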

How the data were processed

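Per the file headers, the deposited scanner files came from Agilent Feature Extraction 10.7.3.1. They hold a median intensity for each spot and its local background in both dyes, a processed intensity that the software background-subtracted and dye-normalized, and the log10 of Cy5 over Cy3 from it, as deposited by the authors. The authors' deposited value table holds log2 ratios that matched these with slopes of 1.00, -1.00, 1.00 and -1.00. The software lists a ratio of 0 where it set none. Median intensities were corrected with limma 3.58.1 (R 4.3.3) by normexp with an offset of 50, normalized by loess and fitted with OXA and dye coefficients. This left 2 residual degrees of freedom, or 3.89 after moderation over all tested probes in the normexp fit. Probes well above background in at least 4 of 8 readings were kept, and 135 were lost to outlier spots. Genes were represented by their brightest kept probe. Of the probes, 6700 matched a gene of the reference table. Members and lists were chosen with earlier results of these data known. The text names all members, up to 3 genes of each pathway list by lowest unadjusted p in the normexp fit, and the 2 genes most like each kept member. SLC2A4 was named after its value was seen. One gene that this rule names is not reported here. The code of the fit was run on simulated data with independent noise on each array. That run does not show what change could be detected in these data. With 4 arrays, precision is limited by their number. Coordinates are left out, as the sources used here name no build.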

Additional observations from a re-analysis of the deposited data

Results flagged for a closer look

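The first ADIPOQ probe was higher in the dye Cy5 on all 4 arrays. The mean log2 OXA over control with OXA in Cy5 minus that with OXA in Cy3 was 1.55 on the deposited ratio and 0.05 (0.0529) with normexp and loess. The difference between dye orientations was not tested beyond the dye coefficient, and no Cy3 reading was well above background.

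The second ADIPOR1 probe stood apart on array 2, at -0.79 on the deposited ratio and -0.11 with normexp and loess, while its other arrays lay at 0.22 to 0.27 and at -0.01 to 0.01. The first ADIPOR1 probe was also lowest on array 2 on the deposited ratio, at -0.72.

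The negative-control spots had a median intensity of 251 in Cy3 on array 1, above 154 to 166 on the other arrays, and of 74 in Cy5 on array 4, above 68 to 69. HCRT, LEP and the second ADIPOR1 probe each missed background in the Cy3 control reading of array 1. Array 1 was alone on its slide, and leaving it out is the comparison within the other slide. For these outlying values, chance marks about 5% of such groups of 4 values. The ADIPOQ split was marked by another rule, on its signs, for which no such share was computed.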

How the results depend on the processing

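No member passed an adjusted p of 0.05 under any setting (lowest 0.159, for ADIPOR2), and LEP kept its sign in 19 of 19. Several of these settings left the LEP coefficient as it was, and all reuse the same 4 arrays. Probes at an unadjusted p under 0.05 numbered 509 in the normexp fit, 1405 without background correction, 1829 on the deposited ratio, 1824 in the authors' table, 4524 with median centring in place of loess, 259 with an intensity trend and robust fitting, 294 with array weights, 1049 with OXA read as Cy5 throughout and 1762 with normexp on the negative controls, an alternative added after seeing the data. They ran from 295 to 8032 without 1 array (8032 without array 3, 2047 without array 4). On the deposited ratio they ran from 729 to 4330 without 1 array. Probes past adjustment there numbered 0 without array 4, 752 without array 3, 62 without array 1 and 3 without array 2. Without array 1 or array 3, every tested member had the same SE of 0.3763 on that ratio. The spread in those fits was thus a value pooled over probes, and their counts do not measure how single probes vary between arrays. Signs turned for HCRT to -0.014 and ADIPOQ to -0.014 on the deposited ratio and the authors' table, for ADIPOQ to -0.042 and ADIPOR1 to 0.065 with median centring, and for ADIPOR1 to 0.0010 with OXA as Cy5. Without 1 array, over both fits, HCRT ran from -0.17 to 0.14, ADIPOQ from -0.18 to 0.15, ADIPOR1 from -0.37 to 0.078 and ADIPOR2 from -0.60 to 0.13. The cause was not tested. Median centring put the median over all tested probes at 0.14 in place of 0.02, and list medians at 0.01 to 0.19. HCRT, LEP and ADIPOQ gave no value where all 8 readings had to pass. Each ratio pairs OXA and control tissue within an array.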
